A study of Homo sapiens with 52 samples.

Results

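Growth factors of the FGF, VEGF, PDGF and HGF families were followed through the senescence of WI-38 cells, a line of human embryonic lung fibroblasts. The members were chosen by gene symbol and comprised 10 of the 59408 genes listed: FGF2, FGF5, FGF7, VEGFA, VEGFC, PDGFA, PDGFC, HGF, ANGPT1 and ANGPTL4. Wild-type WI-38 cells were exposed for 24 h to 0.0090% sodium dodecyl sulfate (SDS, a detergent that damages the plasma membrane; PMD-Sen), to medium with 75 mM KCl (Ca2+-Sen) or to 250 nM doxorubicin (DXR, a DNA-damaging drug; DDR-Sen). They were then washed and kept in fresh medium (renewed every 4 days per the labels, every 2 days per the methods), and RNA was sequenced at the end of the exposure (day 0) and at 7 later times, on days 1 to 4, day 6, day 8 and day 16. Replicatively senescent cells (RS) had been passaged until they stopped dividing, and untreated cells were young WI-38 cells. Each of the 26 groups had 2 libraries, which are described as independent samples with no word on separate cultures. The p-values measure the spread between these libraries, which may in part be technical. One untreated group served every day of every series, so no day had an untreated culture of its own age beside it.

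Growth factors of these families are secreted proteins that bind receptor tyrosine kinases on the same or neighbouring cells. FGFs bind FGF receptors together with heparan sulfate, VEGFs act mainly on endothelial receptors, PDGFs on the receptors of fibroblasts and smooth muscle cells, and HGF on MET, which is found mostly on epithelial cells. ANGPT1 activates the endothelial receptor TEK, whereas ANGPTL4, an angiopoietin-like protein, is best known as an inhibitor of lipoprotein lipase. Fibroblasts are a main source of FGF7, HGF and ANGPT1 in connective tissue, and several of these proteins are counted among the secreted factors of senescent cells.

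Depth was 15260000 and 18970000 reads in the untreated libraries, the shallowest of all, and 19290000 to 55510000 reads in the others (rounded). Whole reads could be recovered for 257 of the 260 pairs of a member and a group. For the remaining 3 (FGF7 and ANGPTL4 on DXR day 1, VEGFA on SDS day 8) only the mean of the group is given. In the tests this mean entered as 1 value with a weight of 2, with no spread between its libraries. Levels below are normalized reads, that is, reads divided by the size factor of the library, and values are given with the deeper library of the group first. The median gene differed between the 2 libraries of a group by 0.09 to 0.23 on the log2 scale, and RS had the widest spread. Every comparison with untreated cells used the same 2 untreated libraries, so results of different days and inducers are not independent of each other. KCl day 8 stood apart from its series: 21.0% of 15796 genes differed from KCl day 6 and 22.8% of genes differed between KCl days 16 and 8, whereas 3.97% differed between KCl days 16 and 6. From SDS day 16, DXR day 16 and RS it differed in 6.02%, 14.9% and 27.3% of genes, while KCl day 16 differed from SDS day 16 in 22.8%. The defining fibroblast markers were abundant in every library, with summed levels of 515289 to 1310304 normalized reads over 8 genes. Of the endothelial markers 4 of 8 stayed under 50 normalized reads in every library, as did 5 of 7 epithelial and 6 of 7 blood cell markers. Sums over each list are given below beside the late rises.

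On the human genome (GRCh38, GENCODE v29) FGF2 lies on chromosome 4 at chr4:122826708-122898236 on the plus strand. FGF5 lies on the same chromosome and strand at chr4:80266599-80336680, and VEGFC and PDGFC are on its minus strand at chr4:176683538-176792727 and chr4:156760454-156971394. FGF7 is at chr15:49423096-49488775 and VEGFA at chr6:43770184-43786487, both on the plus strand. PDGFA (chr7:497258-520296) and HGF (chr7:81699008-81770438) are on the minus strand of chromosome 7. ANGPTL4 is at chr19:8363289-8374373 on the plus strand. The values of each gene are sums over its annotated exons, so that isoforms and splice forms cannot be told apart.

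Promoter sequences are shown for 3 members with different courses, for which the 250 bases before the start held almost no annotated exon: ANGPTL4 (highest on SDS day 0), VEGFC (highest on SDS day 1) and FGF5 (lower on day 0 with every inducer). They are RefSeq sequences of GRCh38.p14, written 5′ to 3′ on the strand of the gene, and capitals mark ACGTG, its other form GCGTG and the TATA box TATAAA on either strand. These windows were at chr19:8363905-8364154, chr4:176792923-176793172 and chr4:80266338-80266587.
ANGPTL4: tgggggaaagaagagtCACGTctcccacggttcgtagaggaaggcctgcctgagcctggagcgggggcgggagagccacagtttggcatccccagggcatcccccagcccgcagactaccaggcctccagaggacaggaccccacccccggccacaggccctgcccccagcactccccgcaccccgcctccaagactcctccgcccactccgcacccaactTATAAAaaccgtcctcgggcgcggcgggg
VEGFC: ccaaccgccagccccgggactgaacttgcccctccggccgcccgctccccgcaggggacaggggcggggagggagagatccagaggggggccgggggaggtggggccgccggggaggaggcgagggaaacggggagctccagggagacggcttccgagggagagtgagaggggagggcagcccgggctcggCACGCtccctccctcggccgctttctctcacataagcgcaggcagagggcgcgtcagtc
FGF5: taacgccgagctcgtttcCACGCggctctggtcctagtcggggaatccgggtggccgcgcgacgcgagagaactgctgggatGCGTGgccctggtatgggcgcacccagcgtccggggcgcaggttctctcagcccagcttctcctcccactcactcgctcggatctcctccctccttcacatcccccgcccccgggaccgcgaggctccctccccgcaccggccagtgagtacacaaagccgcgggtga

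The core of the hypoxia response element, ACGTG, was found in 18.5% of 35116 RefSeq windows of this length. Among the 7 members with a window it was found in that of ANGPTL4, as CACGT beginning 234 bases before the start. Its other form, GCGTG, was in 32.2% of all windows and in those of FGF2, FGF5, HGF, PDGFA and VEGFC. The TATA box, TATAAA, was in 10.7% of all windows. It began 29 bases before the start of ANGPTL4, and a window of another start of FGF5, not shown here, also held it. The GC box GGGCGG was in 42.6% of windows and in those of ANGPTL4, FGF2, FGF5, PDGFA and VEGFC. No member window held the ATF4-type element TGATGNAAN (3.13% of all windows), the AP-1 site TGANTCA (6.57%), the cAMP response element TGACGTCA (1.65%) or the direct repeat bound by PPAR (0.0171%), all searched on both strands. VEGFA, PDGFC and ANGPT1 had no window and were not searched. Motifs that overlapped each other were counted separately, and these matches describe letters only.

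Per kilobase of exon, untreated cells held FGF5 at the highest mean level (1457 normalized reads per kb), ahead of VEGFC (1206), HGF (827) and FGF2 (734). FGF7 followed at 677, PDGFC at 568 and ANGPT1 at 470 normalized reads per kb. ANGPTL4 (155), VEGFA (119) and PDGFA (34.2) were the least abundant per kb. The length used was that of all annotated exons of a gene together, from 2420 bases for VEGFC to 14431 for VEGFA. A gene with many annotated forms, such as VEGFA, can thus rank lower than by the length of 1 transcript. The order changed with treatment: on SDS day 0 FGF2 (2463 normalized reads per kb) and ANGPTL4 (2375) were at the top, on SDS day 1 VEGFC was (3573), and in RS FGF7 was (1330). PDGFA was the lowest of the 10 members per kb in every group.

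**Figure D1:**
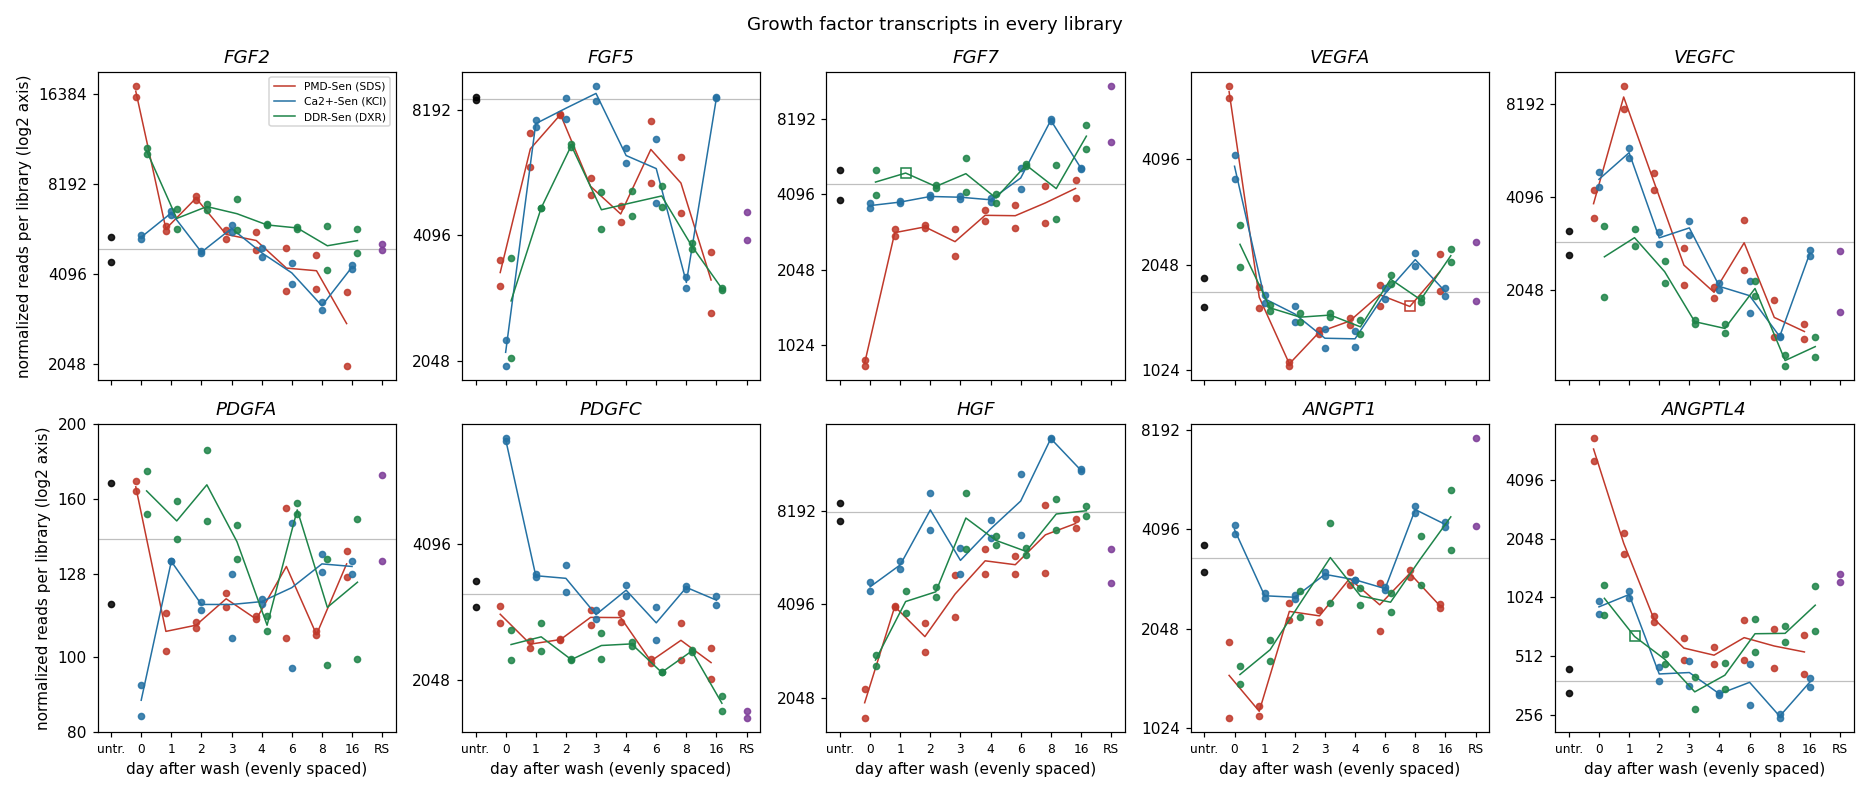
Levels of the 10 members in each library (normalized reads, log axis) against day after the wash, one panel per member, with the untreated and RS libraries beside the days. Lines join the group means of an inducer over evenly spaced days, the grey line is the untreated mean, and open squares are group means for the 3 pairs whose libraries were not resolved. FGF2, VEGFA and ANGPTL4 are highest on SDS day 0 (group means 16687, 6351 and 5894), VEGFC on SDS day 1 (8647), and FGF7 and HGF are lowest on SDS day 0 (871 and 1980).

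Across the series, ANGPTL4 had the widest range of group means, with a ratio of 23.4 between SDS day 0 (5894 normalized reads) and KCl day 8 (252). FGF7 ranged 10.2-fold, from 871 on SDS day 0 to 8851 in RS. VEGFC ranged 7.18-fold, HGF 7.04-fold, FGF2 5.97-fold, VEGFA 5.94-fold, ANGPT1 5.17-fold, FGF5 4.19-fold and PDGFC 4.04-fold. PDGFA ranged 1.90-fold. When the 26 groups were ordered by level, few neighbours in the order differed by the test. Of 25 neighbouring pairs 2 differed for FGF2 and VEGFA, 1 for FGF7, VEGFC, PDGFC and ANGPTL4, and none for FGF5, PDGFA, HGF and ANGPT1. The order was made from the same levels, so neighbours lie close by construction. These counts therefore do not measure how far the groups differed, and only bear on the exact place of a group in the order.

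Which members differed from untreated cells, and when, was tested in a single limma fit of all 52 libraries. A member passed the test when the two-sided p, adjusted by the method of Benjamini and Hochberg over the 15796 genes tested in that comparison, was below 0.05. After SDS, 35 of 80 pairs of a member and a day passed, where 31.2% of all such pairs of genes and days passed. After KCl it was 18 of 80 (25.0% over all genes). On KCl day 8 alone 5 of 10 members passed (42.5% over all genes), which leaves 13 on the other days. In fits of only the groups compared it was 28 after KCl, and the share over all genes in such fits is not given here. After DXR it was 34 of 80 (31.5% over all genes). In RS 6 of 10 members passed, 3 higher and 3 lower (46.8% over all genes, 22.9% higher and 23.9% lower), and 3 in a fit of only RS and untreated cells. The counts of members after KCl and in RS thus changed with the fit. With 10 members the differences between their shares and those of all genes were not tested, and they are not read as a result about the members. Over the 8 days of an inducer, without the untreated cells, 28 of the 30 pairs of a member and an inducer varied by the F test (78.0% of all genes after SDS, 77.9% after KCl and 54.1% after DXR). The exceptions were PDGFA after SDS (adjusted p = 0.0584) and after KCl (adjusted p = 0.118).

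Members were followed from the end of the exposure on. On day 0, 7 members passed after SDS (3 higher, 4 lower), 7 after KCl (4 higher, 3 lower) and 7 after DXR (3 higher, 4 lower). Over all genes 54.9% passed after SDS (26.2% higher, 28.7% lower), 58.7% after KCl (27.0% higher, 31.7% lower) and 39.7% after DXR (18.2% higher, 21.5% lower). On SDS days 1 and 2 6 and 7 members passed (30.2% and 20.4% of all genes), and of the 7 on day 2 5 ended without 1 library, the exceptions being VEGFA and HGF. From SDS day 3 on no member was higher than in untreated cells, and 2 to 4 were lower on each day. Over all genes 11.3%, 12.2%, 15.5%, 12.6% and 20.4% were higher on SDS days 3, 4, 6, 8 and 16, and 9.65%, 11.5%, 14.7%, 13.2% and 22.8% were lower. On KCl days 2 and 16 no member passed (5.01% and 16.0% of all genes). At an unadjusted p below 0.05 the counts were 0 and 1, with limma's voom weights 0 and 0, and in a fit of only the groups compared 0 and 2. After DXR 5, 2, 3, 3, 4 and 4 members passed from day 1 to day 8, where 29.3%, 19.2%, 21.0%, 24.2%, 35.6% and 36.4% of all genes did. On DXR day 16 it was 6 (3 higher, 3 lower), with 46.4% of all genes (21.6% higher, 24.8% lower).

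**Figure D2:**
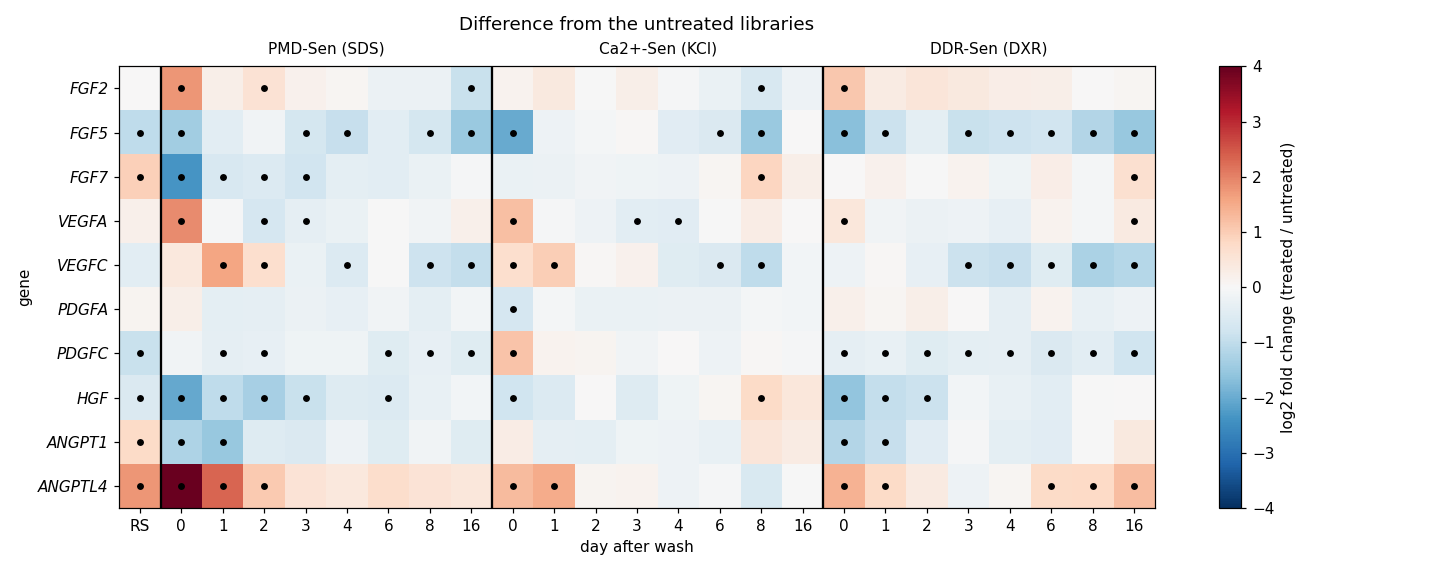
Heat map of the log2 fold change of each member against untreated cells (rows) in the 25 treated or senescent groups (columns), with dots where the adjusted p was below 0.05. ANGPTL4 on SDS day 0 has the largest rise (3.94) and FGF7 on SDS day 0 the largest fall (-2.36), FGF5 carries 16 dots and PDGFA 1.

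FGF2, the basic FGF that lacks a secretion signal and is held by heparan sulfate, rose at the end of the SDS and DXR exposures. It was 4496 and 5453 normalized reads in untreated cells and 17385 and 15989 on SDS day 0. These libraries lay above all others of the series, and the log2 fold change was 1.75 ± 0.17 (SE, n = 2 libraries per group, adjusted p = 3.19e-10). On DXR day 0 FGF2 was 10792 and 10310 normalized reads, also clear of the untreated range (1.09 ± 0.17, adjusted p = 5.18e-06). KCl day 0, with 5361 and 5500, was near the untreated level (0.13). Within 1 day of the wash the level fell by 1.53 on the log2 scale after SDS (adjusted p = 4.98e-09) and by 0.75 after DXR (adjusted p = 0.00168). At the other end of the time course FGF2 was lower on SDS day 16, at 3570 and 2016 normalized reads (-0.88 ± 0.17, adjusted p = 1.00e-04), with libraries that differed widely from each other. It was higher on SDS day 2 (0.57, adjusted p = 0.0185), a call that ended without the deeper untreated library (0.43, adjusted p = 0.202) or without either day 2 library (0.54 and 0.59, adjusted p = 0.109 and 0.0715). On KCl day 8 it was lower (-0.63, adjusted p = 0.00364), except when the shallower untreated library was left out (-0.49, adjusted p = 0.0716). In RS FGF2 (4923 and 5149) overlapped the untreated libraries.

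FGF5, an FGF known for ending the growth phase of hair follicles, was the member most often lower, in 16 of the 25 comparisons with untreated cells and higher in none (over all genes and comparisons 15.3% were lower). Its untreated level was 8832 and 8646 normalized reads. On day 0 it stood at 3088 and 3579 after SDS (-1.39 ± 0.19, adjusted p = 1.33e-07), at 1987 and 2299 after KCl (-2.03 ± 0.19, adjusted p = 6.19e-11) and at 3616 and 2082 after DXR (-1.67 ± 0.19, adjusted p = 1.02e-08). None of these libraries overlapped the untreated ones. Recovery by day 1 was measured with each inducer, as rises of 0.99 after SDS (adjusted p = 3.34e-05), 1.83 after KCl (adjusted p = 5.02e-10) and 0.80 after DXR (adjusted p = 0.00207) on the log2 scale. That after DXR ended without the shallower day 0 library (0.40, adjusted p = 0.224). The level on day 2 was 7997 and 8001 normalized reads after SDS and 8767 and 7797 after KCl, where neither comparison with untreated cells passed.

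Later FGF5 fell again in some series. On DXR day 16 it was 3067 and 3032 normalized reads (-1.52 ± 0.19, adjusted p = 5.40e-08), and it was lower on 7 of the 8 DXR days, day 2 being the exception. On SDS day 16 it was 3740 and 2659 (-1.47 ± 0.19, adjusted p = 1.44e-07). KCl day 16, in contrast, had 8758 and 8821 normalized reads, close to untreated cells (0.01), although KCl day 8 had 3248 and 3061 (-1.47, adjusted p = 1.76e-07). RS cells held 4651 and 3993 (-1.02 ± 0.19, adjusted p = 3.23e-05). Calls that ended without 1 library were those of SDS day 3 (without its deeper library, -0.63, adjusted p = 0.0552), SDS day 8 (without its deeper library, -0.47, adjusted p = 0.143) and KCl day 6. The last ended without either untreated library (-0.57 and -0.60, adjusted p = 0.0833 and 0.0685) and without the deeper day 6 library (-0.33, adjusted p = 0.308).

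FGF7, the keratinocyte growth factor that fibroblasts make and epithelial cells receive, showed the deepest fall of any member. Untreated libraries had 3874 and 5138 normalized reads and those of SDS day 0 had 848 and 893 (-2.36 ± 0.20, adjusted p = 2.24e-11). No other library of the series was that low. KCl day 0 (3621 and 3772) and DXR day 0 (4059 and 5118) did not pass. After SDS the level rose by 1.73 on the log2 scale between days 0 and 1 (adjusted p = 1.19e-08), to 2979 and 2789, still below untreated cells (-0.63, adjusted p = 0.0166). The calls of SDS days 1, 2 and 3 each ended without the shallower untreated library (-0.43, -0.35 and -0.56, adjusted p = 0.209, 0.345 and 0.119). They also ended without the shallower library of day 1 (-0.58, adjusted p = 0.104), of day 2 (-0.57, adjusted p = 0.136) or of day 3 (-0.58, adjusted p = 0.140), and that of day 2 without its deeper library as well (-0.53, adjusted p = 0.187).

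In the late groups FGF7 was higher. RS had 11096 and 6605 normalized reads, both above the untreated range and far from each other (0.94 ± 0.20, adjusted p = 2.64e-04). This difference did not pass in a fit of only RS and untreated cells, as given below. On KCl day 8 it was 8014 and 8166 (0.86 ± 0.20, adjusted p = 8.89e-04), and on KCl day 16 it was 5192 and 5233, which did not pass. DXR day 16 had 7752 and 6232 (0.64 ± 0.20, adjusted p = 0.00946), a call that ended without the deeper untreated library (0.44, adjusted p = 0.158) or the deeper DXR day 16 library (0.48, adjusted p = 0.124). SDS day 16, with 4677 and 3978, overlapped the untreated libraries.

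VEGFA, the main endothelial mitogen of its family, was higher on day 0 with each inducer and fell back by day 1. From 1875 and 1550 normalized reads in untreated cells it reached 6599 and 6103 on SDS day 0 (1.90 ± 0.13, adjusted p = 3.66e-13). It was 3592 and 4205 on KCl day 0 (1.19 ± 0.13, adjusted p = 6.20e-09) and 2016 and 2659 on DXR day 0 (0.44 ± 0.13, adjusted p = 0.00850). SDS and KCl libraries were thus well above the untreated pair, whereas the lower DXR library was close to it. The DXR day 0 call ended without the shallower untreated library (0.30, adjusted p = 0.155) or the shallower DXR library (0.24, adjusted p = 0.258). By day 1 VEGFA had fallen by 1.94 after SDS (adjusted p = 1.58e-13), by 1.25 after KCl (adjusted p = 2.04e-09) and by 0.59 after DXR (adjusted p = 0.00175) on the log2 scale. The last of these falls ended without the shallower DXR day 0 library (-0.39, adjusted p = 0.120).

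A dip of VEGFA followed on SDS day 2, with 1083 and 1054 normalized reads, the lowest group of the series (-0.67 ± 0.13, adjusted p = 6.97e-04). Smaller falls were called on SDS day 3 (-0.37, adjusted p = 0.0443) and on KCl days 3 and 4 (-0.43 and -0.44, adjusted p = 0.0257 and 0.0191). Those 3 ended without the deeper untreated library (-0.24, -0.30 and -0.30, adjusted p = 0.362, 0.287 and 0.227). Those of the KCl days also ended without the shallower library of day 3 (-0.35, adjusted p = 0.231) or day 4 (-0.37, adjusted p = 0.161), and that of SDS day 3 without its deeper (-0.39, adjusted p = 0.102) or shallower library (-0.35, adjusted p = 0.190). On DXR day 16 VEGFA was 2076 and 2263 normalized reads (0.35, adjusted p = 0.0331). This call ended without the shallower untreated library (0.21, adjusted p = 0.329) and without the deeper (0.41, adjusted p = 0.0510) or shallower (0.29, adjusted p = 0.176) day 16 library. RS, with 1617 and 2376, did not pass.

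VEGFC, which drives the growth of lymphatic vessels through FLT4, peaked 1 day later than VEGFA. Untreated cells had 2654 and 3183 normalized reads, SDS day 0 had 3487 and 4299, which did not pass, and SDS day 1 had 7897 and 9397 (1.57 ± 0.20, adjusted p = 4.49e-07). The rise from day 0 to day 1 was 1.15 on the log2 scale (adjusted p = 7.46e-06), and VEGFC then fell by 0.91 to day 2 (adjusted p = 0.00172) and by 0.91 to day 3 (adjusted p = 0.0108). The latter fall ended without the deeper library of day 2 (-0.82, adjusted p = 0.224) or of day 3 (-0.71, adjusted p = 0.194). KCl gave a smaller peak: 4422 and 4919 normalized reads on day 0 (0.68, adjusted p = 0.00339) and 5493 and 5906 on day 1 (0.97 ± 0.20, adjusted p = 8.36e-04). After DXR VEGFC was never higher. The DXR day 0 libraries, 3292 and 1941, lay on both sides of the untreated pair.

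From day 3 on VEGFC was lower after DXR on each day tested, and by day 8 it had 1156 and 1252 normalized reads, the lowest group (-1.27 ± 0.20, adjusted p = 4.90e-06). It was also lower on SDS days 8 and 16 (-0.82 and -0.96, adjusted p = 0.00219 and 1.76e-04) and on KCl day 8 (-1.01, adjusted p = 9.88e-05). KCl day 16, at 2626 and 2746, was near untreated cells, and so was RS, at 2723 and 1728, where neither passed. Of the 14 calls, 6 ended without 1 library. They were SDS day 2 (0.66, adjusted p = 0.0163), SDS day 4 (-0.54, adjusted p = 0.0442), SDS day 8, KCl day 0, KCl day 6 (-0.58, adjusted p = 0.0261) and DXR day 6 (-0.50, adjusted p = 0.0466). Without the deeper untreated library the values were 0.53 on SDS day 2, -0.67 on SDS day 4, 0.55 on KCl day 0 and -0.63 on DXR day 6 (adjusted p = 0.162, 0.0539, 0.0559 and 0.0505). Without the shallower one they were -0.41 on SDS day 4, -0.45 on KCl day 6 and -0.37 on DXR day 6 (adjusted p = 0.265, 0.203 and 0.271). Without the deeper library of the day itself they were 0.57 on SDS day 2, -0.48 on SDS day 4, -0.62 on SDS day 8, -0.41 on KCl day 6 and -0.57 on DXR day 6 (adjusted p = 0.143, 0.193, 0.0640, 0.234 and 0.0772), and without the shallower -0.60 on SDS day 4 and -0.42 on DXR day 6 (adjusted p = 0.101 and 0.219).

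PDGFC, a PDGF that is released from its amino-terminal domain by proteases and acts on PDGFRA, separated KCl from the other inducers. Untreated libraries had 3384 and 2967 normalized reads, and those of KCl day 0 had 7000 and 6914 (1.13 ± 0.09, adjusted p = 4.52e-12), the highest of the series. On SDS day 0 the level was 2746 and 2984, which did not pass, and on DXR day 0 it was 2641 and 2273 (-0.37 ± 0.09, adjusted p = 0.00153). The KCl peak had ended by day 1, with a fall of 1.00 on the log2 scale (adjusted p = 6.25e-11). PDGFC was lower on all 8 DXR days, by 0.31 to 0.80 on the log2 scale, with 1754 and 1894 normalized reads on day 16 (-0.80 ± 0.09, adjusted p = 1.75e-08). It was lower on 5 SDS days as well (of all pairs of genes and days 16.1% were lower after DXR and 15.3% after SDS) and in RS, at 1690 and 1756 (-0.88 ± 0.09, adjusted p = 2.27e-09).

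These falls were small and rested partly on the untreated pair, whose libraries differed more than most later pairs. Without the deeper untreated library 7 of the 15 calls ended: SDS days 1, 2 and 8 (-0.27, -0.24 and -0.25, adjusted p = 0.0792, 0.175 and 0.116) and DXR days 0, 1, 3 and 4 (-0.28, -0.22, -0.28 and -0.27, adjusted p = 0.0541, 0.160, 0.0832 and 0.0914). The call of SDS day 2 also ended without its deeper (-0.32, adjusted p = 0.0725) or shallower library (-0.34, adjusted p = 0.0514), and those of SDS day 8 and DXR day 0 without their shallower ones (-0.21 and -0.26, adjusted p = 0.176 and 0.0688). DXR days 1 and 3 lost theirs without the deeper library of the day (-0.21 and -0.28, adjusted p = 0.179 and 0.0846).

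PDGFA, which like PDGFC signals through PDGFRA, was the least abundant member, at 168 and 117 normalized reads in untreated cells. It was lower only on KCl day 0 among the 25 comparisons, at 83.9 and 92.1 (-0.68 ± 0.20, adjusted p = 0.00386), and this call ended without the deeper untreated library (-0.42, adjusted p = 0.127). From KCl day 0 to day 1 it rose by 0.60 on the log2 scale (adjusted p = 0.00937). Between SDS days 0 and 1 it fell by 0.62 (adjusted p = 0.00750), from 169 and 164 to 102 and 114 normalized reads. The rise ended without the deeper KCl day 0 library (0.53, adjusted p = 0.0700) and the fall without the deeper SDS day 1 library (-0.54, adjusted p = 0.0636).

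HGF, the fibroblast-derived ligand of MET, fell at the end of each exposure and came back over the following days. Untreated cells had 8644 and 7592 normalized reads. Day 0 libraries had 1765 and 2195 after SDS (-2.04 ± 0.20, adjusted p = 4.89e-10), 4512 and 4813 after KCl (-0.80 ± 0.20, adjusted p = 0.00121) and 2601 and 2826 after DXR (-1.58 ± 0.20, adjusted p = 1.90e-07). All of them lay below the untreated pair. After SDS it was 4015 and 4045 on day 1, 2878 and 3576 on day 2, and 7201 and 7679 on day 16, and the calls covered days 0, 1, 2, 3 and 6. After DXR the calls covered days 0, 1 and 2, and the later days did not pass.

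On KCl day 8 HGF was 13894 and 13977 normalized reads, the highest group (0.78 ± 0.20, adjusted p = 0.00243). KCl day 16, at 11096 and 10961, was above the untreated pair but did not pass. In RS HGF was lower, at 4801 and 6182 (-0.57 ± 0.20, adjusted p = 0.0211), a call that ended without the deeper untreated library (-0.48, adjusted p = 0.136) or the deeper RS library (-0.39, adjusted p = 0.210). On SDS day 3 the call (-0.89, adjusted p = 0.00223) ended without the shallower library (-0.67, adjusted p = 0.0848). That of SDS day 6 (-0.56, adjusted p = 0.0344) ended without any of the 4 libraries compared (between -0.47 and -0.66, adjusted p between 0.0511 and 0.200).

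ANGPT1, the activating ligand of TEK, was lower on the first days after SDS and DXR. It was 3029 and 3665 normalized reads in untreated cells, 1097 and 1860 on SDS day 0 (-1.22 ± 0.23, adjusted p = 3.70e-05) and 1192 and 1113 on SDS day 1 (-1.53 ± 0.23, adjusted p = 7.39e-06). DXR days 0 and 1 had 1396 and 1579 (-1.17 ± 0.23, adjusted p = 1.28e-04) and 1638 and 1898 (-0.92 ± 0.23, adjusted p = 0.00277). None of these libraries reached the untreated pair. KCl day 0, at 4204 and 3953, did not pass. By SDS day 2 the level had risen by 1.00 on the log2 scale (adjusted p = 0.00316), to 2170 and 2449, a call that ended without the shallower day 2 library (0.91, adjusted p = 0.0593). RS libraries were 4197 and 7720 (0.77 ± 0.23, adjusted p = 0.00628), and the call ended without the shallower of them (0.33, adjusted p = 0.302) or without the deeper untreated library (0.63, adjusted p = 0.0769).

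The falls of FGF7, HGF and ANGPT1 on SDS day 0 came with lower levels of some other fibroblast genes. Of the 8 fibroblast markers 5 were lower and 1 higher on SDS day 0 (28.7% and 26.2% over all genes). Their summed level there, 1021425 to 1033824 normalized reads, lay within the range of untreated cells (961256 to 1223996). On KCl day 0 5 of 8 were lower (31.7% over all genes), with a sum of 515289 to 536133. There HGF was lower, and FGF7 and ANGPT1 did not pass. On DXR day 0 1 of 8 was lower (21.5% over all genes), with a sum of 1140279 to 1142772. There HGF and ANGPT1 were lower, and FGF7 did not pass. The part of these markers in the results was not tested. In these bulk libraries fewer cells of a kind and less RNA per cell cannot be told apart.

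The rises of FGF7 and HGF on KCl day 8 and of FGF7 and ANGPT1 in RS came with higher sums of endothelial and blood cell markers. Over the 8 endothelial markers the sum was 3177 to 3378 normalized reads in untreated cells, 7128 to 7496 on KCl day 8 and 3829 to 6233 in RS. TEK made up most of it, at 2981 and 3235, then 7002 and 7390, and 3655 and 6144, while CDH5 had no read in these 3 groups and PECAM1 stayed at or under 6.05 normalized reads there. Over the 7 blood cell markers the sums were 31.2 to 34.3, 234 to 310 and 119 to 426, nearly all of it CD14, with PTPRC at or under 4.84 and CD68 at or under 1.94. Epithelial markers summed to 1150 to 1575, 624 to 677 and 490 to 1912 normalized reads. The sums over endothelial and blood cell markers were also higher on SDS day 16, at 3654 to 7258 and 150 to 386 normalized reads. There FGF7, HGF and ANGPT1 were not higher than in untreated cells. On DXR day 16 these 2 sums were 3941 to 5116 and 244 to 292 normalized reads. There FGF7 was higher, and HGF and ANGPT1 did not pass. Of the tested markers CD14 was higher in 6 and PECAM1 in 10 of the 25 comparisons with untreated cells. CLDN4 was higher in 7 and VWF in 4, and none of these 4 markers was lower in any. TEK was higher in 2 and lower in 6, ROBO4 in 3 and 4, and KRT19 in 1 and 4. EPCAM was lower in 8 and higher in none. Over all genes and comparisons 14.6% were higher and 15.3% lower. What part the cells these markers stand for had in the rises was not tested.

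ANGPTL4 had the largest changes of all members. From 331 and 438 normalized reads in untreated cells it reached 5091 and 6697 on SDS day 0, 15.3-fold higher on the fitted log2 scale (3.94 ± 0.28, adjusted p = 5.53e-13). No other library of the series came near. It then fell by 1.60 to day 1 (adjusted p = 1.47e-05) and by 1.27 to day 2 (adjusted p = 0.00234) on the log2 scale, at 1699 and 2184 and then 826 and 767 normalized reads. The second fall ended without the shallower day 1 library (-1.09, adjusted p = 0.0501). The rise on SDS day 2 (1.06, adjusted p = 0.00784) ended without the deeper untreated library (0.86, adjusted p = 0.111) or the deeper day 2 library (1.01, adjusted p = 0.0689). From SDS day 3 on the comparison with untreated cells did not pass.

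KCl raised ANGPTL4 on days 0 and 1, to 846 and 987 (1.26 ± 0.28, adjusted p = 3.04e-04) and 1019 and 1098 normalized reads (1.47 ± 0.28, adjusted p = 5.30e-04). By KCl day 2 it was back at 448 and 383. On DXR day 0 it was 1192 and 834 (1.39 ± 0.28, adjusted p = 1.96e-04). After DXR ANGPTL4 was higher than in untreated cells again on days 6, 8 and 16 (0.78, 0.81 and 1.24, adjusted p = 0.0296, 0.0247 and 5.41e-04), with 691 and 1177 normalized reads on day 16. SDS and DXR did not differ by the test on these days (-0.08, -0.25 and -0.78, adjusted p = 0.945, 0.865 and 0.103). KCl was lower than DXR on days 8 and 16 (-1.40 and -1.26, adjusted p = 8.55e-04 and 0.00112), the latter except without the shallower DXR library (-0.88, adjusted p = 0.0558). RS had 1221 and 1349 (1.75 ± 0.28, adjusted p = 6.22e-06), well above the untreated pair.

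Among these calls those of DXR days 1, 6 and 8 were the least firm. Without the deeper untreated library they ended (0.56, 0.58 and 0.60, adjusted p = 0.271, 0.229 and 0.201). They also ended without the deeper library of day 6 (0.50, adjusted p = 0.291) or the shallower library of day 8 (0.68, adjusted p = 0.159). On day 1 (0.76, adjusted p = 0.0404), where only the mean of the pair was known, the call ended when either library was dropped and the mean kept with less weight (0.77 and 0.76, adjusted p = 0.120 and 0.124).

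How the inducers differed from each other was tested directly on each day. Between SDS and KCl 32 of 80 pairs of a member and a day passed (17.3% over all genes). On day 8 alone 7 of 10 members passed (19.5% over all genes), which leaves 25 on the other days. Between SDS and DXR 19 passed (16.3%), and between KCl and DXR 26 passed (19.6%). On day 8 alone 6 of 10 passed between KCl and DXR (22.3% over all genes), which leaves 20 on the other days. In fits of only the groups compared 42 passed between KCl and DXR, where the share over all genes is not given. On day 0 the counts were 9 members between SDS and KCl (63.5% of all genes), 6 between SDS and DXR (56.0%) and 7 between KCl and DXR (60.5%).

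Fewer members differed between inducers on the middle days. No member passed between SDS and KCl on days 3, 4 and 6 (0.177%, 0.108% and 0.215% of all genes), where 3, 3 and 5 members had an unadjusted p below 0.05. With voom weights the counts were 0 on each of those days, and in a fit of only the groups compared 2, 2 and 0. Between SDS and DXR none passed on days 4, 6 and 8 (0.766%, 1.28% and 1.82% of all genes), with 1, 3 and 2 at an unadjusted p below 0.05. There voom weights gave 0 on each day and the fit of only the groups compared 1, 0 and 0. On day 3 FGF7 and HGF were lower after SDS than after DXR (-0.89 and -0.80, adjusted p = 0.00445 and 0.0129; 7.23% of all genes passed). Both calls ended without the shallower SDS library (-0.71 and -0.57, adjusted p = 0.139 and 0.292) or the shallower DXR library (-0.66 and -0.49, adjusted p = 0.141 and 0.307). Between KCl and DXR 2, 1 and 1 members passed on days 3, 4 and 6 (4.67%, 2.71% and 4.34% of all genes). VEGFC (1.01, adjusted p = 0.00156) and FGF5 (0.94, adjusted p = 0.00187) were higher after KCl on day 3, the latter except without the shallower DXR library (0.79, adjusted p = 0.0705). PDGFC was higher after KCl on days 4 and 6 (0.39 and 0.36), where calls ended without any of the 4 libraries of day 4 (adjusted p = 0.0668 to 0.156) and without the deeper KCl (adjusted p = 0.432) or either DXR library of day 6 (adjusted p = 0.120 and 0.115).

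On day 0 SDS stood out by ANGPTL4, FGF7 and VEGFA. ANGPTL4 was higher after SDS than after KCl by 2.68 ± 0.28 (log2, adjusted p = 1.06e-09) and than after DXR by 2.55 ± 0.28 (adjusted p = 4.57e-09). FGF7 was lower after SDS than after KCl by 2.08 (-2.08 ± 0.20, adjusted p = 1.54e-10) and than after DXR by 2.39 (-2.39 ± 0.20, adjusted p = 1.46e-11). VEGFA was highest after SDS, by 0.71 over KCl (adjusted p = 2.87e-05) and 1.45 over DXR (adjusted p = 9.58e-11), and KCl exceeded DXR by 0.75 (adjusted p = 1.50e-05). FGF2 followed another order, with SDS above DXR by 0.66 (adjusted p = 0.00147) and DXR above KCl, the difference of KCl to DXR being -0.96 (adjusted p = 1.45e-05).

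KCl day 0 stood out by PDGFC and ANGPT1. PDGFC was lower after SDS than after KCl (-1.28 ± 0.09, adjusted p = 1.29e-13) and higher after KCl than after DXR (1.51 ± 0.09, adjusted p = 4.67e-15). ANGPT1 differed likewise, by -1.51 ± 0.23 between SDS and KCl (adjusted p = 9.46e-07) and 1.46 ± 0.23 between KCl and DXR (adjusted p = 2.07e-06), and the interval between SDS and DXR was -0.52 to 0.41. FGF5 was lower after KCl than after SDS by 0.64 (adjusted p = 0.00335), and KCl and DXR did not differ by the test (-0.36, 95% interval -0.74 to 0.02). For ANGPTL4 the interval of the difference between KCl and DXR was -0.70 to 0.45.

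**Figure D3:**
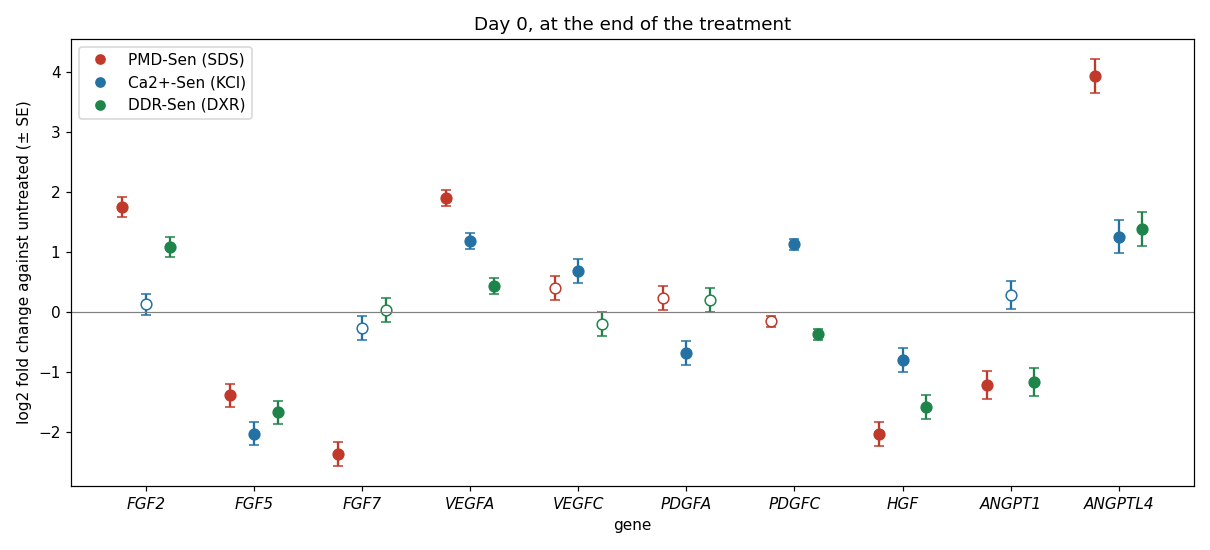
Log2 fold change of each member on day 0 against untreated cells after SDS, KCl and DXR (points, with bars of 1 standard error), filled where the adjusted p was below 0.05. ANGPTL4 (3.94, 1.26 and 1.39) and VEGFA (1.90, 1.19 and 0.44) lie above 0 and FGF5 (-1.39, -2.03 and -1.67) and HGF (-2.04, -0.80 and -1.58) below it with each inducer, whereas PDGFC is high with KCl alone (1.13).

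On day 1 5 members passed between SDS and DXR (35.0% of all genes), with the largest differences in VEGFC and ANGPTL4. FGF5 was higher after SDS (0.47, adjusted p = 0.0494). FGF7 and ANGPT1 were lower after SDS (-0.79 and -0.61, adjusted p = 0.00253 and 0.0369). Fits without 1 library are not given for FGF5, FGF7 and ANGPT1 on this day. VEGFC was higher by 1.52 ± 0.20 after SDS (adjusted p = 2.95e-07) and by 0.92 ± 0.20 after KCl than after DXR (adjusted p = 6.56e-04). ANGPTL4 was higher after SDS than after DXR by 1.58 ± 0.28 (adjusted p = 5.32e-05). For ANGPTL4 and FGF7 only the mean of the DXR day 1 pair was known, so these libraries added no spread of their own to the SE. On day 2 HGF was lower after SDS than after KCl (-1.34 ± 0.20, adjusted p = 1.63e-04). By day 16 FGF5 was lower after SDS than after KCl (-1.48 ± 0.19, adjusted p = 1.99e-06) and higher after KCl than after DXR (1.53 ± 0.19, adjusted p = 2.39e-07). PDGFC and VEGFC were also lower after SDS than after KCl (-0.46 and -0.85, adjusted p = 4.50e-04 and 0.00198). Both were higher after KCl than after DXR (0.76 and 1.01, adjusted p = 2.40e-07 and 2.13e-04). FGF2, HGF and ANGPT1 were lower after SDS than after KCl too (-0.69, -0.57 and -0.82, adjusted p = 0.00391, 0.0418 and 0.00945). Over all genes 13.1% were lower after SDS than after KCl on day 16. Between SDS and DXR on day 16 FGF2, FGF7 and ANGPT1 were lower after SDS (-0.97, -0.69 and -0.86, adjusted p = 0.00159, 0.0408 and 0.0254). Each of these calls ended without the shallower SDS day 16 library (-0.56, -0.57 and -0.89, adjusted p = 0.132, 0.430 and 0.183). That of FGF7 also ended without the deeper (-0.53, adjusted p = 0.317) or shallower DXR library (-0.85, adjusted p = 0.0521), and that of ANGPT1 without the deeper SDS (-0.84, adjusted p = 0.0529) or the shallower DXR library (-0.56, adjusted p = 0.266).

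Late induced senescence was set beside replicative senescence. Of 30 pairs of a member and an inducer on day 16, 11 differed from RS (17.2% of all pairs of genes and inducers). In fits of only the groups compared 4 did, where the share over all genes is not given. The 11 were 5 after SDS (19.4% of all genes), 5 after KCl (28.7%) and 1 after DXR (3.55%). VEGFC was the member that differed between DXR day 16 and RS (-0.70 ± 0.20, adjusted p = 0.0379), and this ended without the deeper RS library (-0.38, adjusted p = 0.367) or without either DXR library (-0.81 and -0.60, adjusted p = 0.0852 and 0.241). For the other 9 members the 95% intervals of that difference reached from -1.08 (ANGPTL4) to 1.00 (HGF), which leaves room for differences of that size. SDS day 16 was lower than RS in FGF2 (-0.91), FGF7 (-0.99), ANGPT1 (-1.25) and ANGPTL4 (-1.29) and higher in PDGFC (0.38), with adjusted p between 2.63e-04 and 0.00374. Without the shallower SDS day 16 library the calls of FGF2, ANGPTL4 and PDGFC ended (-0.50, -0.96 and 0.26, adjusted p = 0.0745, 0.0826 and 0.161). KCl day 16 was higher than RS in FGF5 (1.03), PDGFC (0.84) and HGF (1.02) and lower in FGF7 (-0.72) and ANGPTL4 (-1.77), with adjusted p between 2.21e-08 and 0.00707, and that of FGF7 ended without the deeper RS library (-0.34, adjusted p = 0.270). The 2 RS libraries differed more than any other pair (median 0.23 on the log2 scale over all genes), and in a fit of only the groups compared FGF7, HGF and ANGPT1 no longer passed between RS and untreated cells (0.93, -0.58 and 0.76, adjusted p = 0.0774, 0.0553 and 0.132), while FGF5, PDGFC and ANGPTL4 did.

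**Figure D4:**
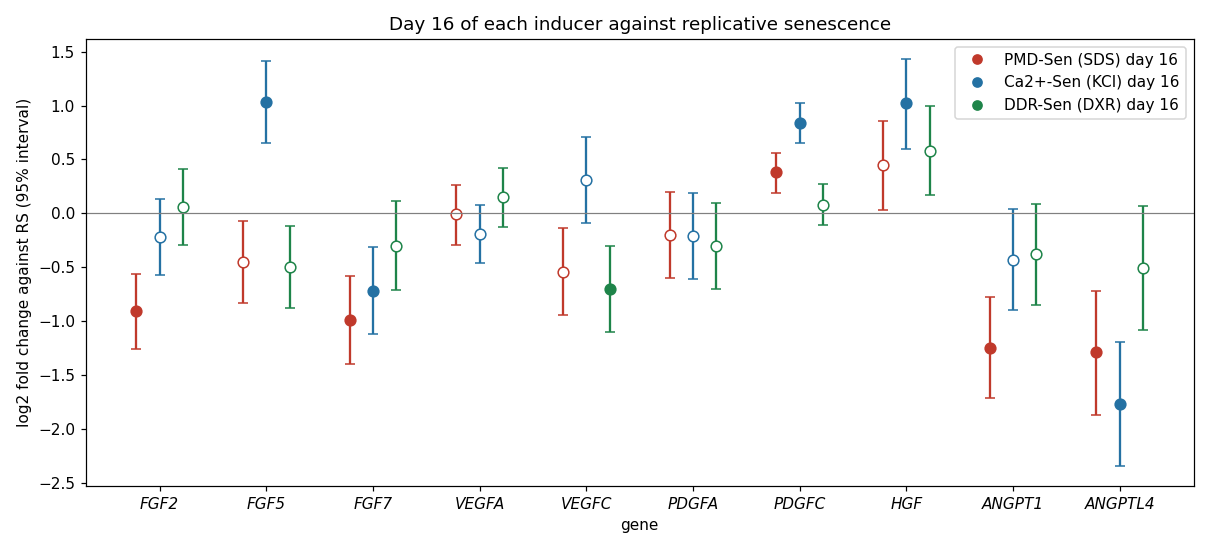
Log2 difference of each member between day 16 after SDS, KCl or DXR and RS (points, with bars of the 95% interval, not adjusted for multiple tests), filled where the adjusted p was below 0.05. Filled points are 5 for SDS, 5 for KCl and 1 for DXR, with FGF5 (1.03), PDGFC (0.84) and HGF (1.02) above 0 and ANGPTL4 (-1.77) lowest after KCl.

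Other genes of the pathway were taken from lists of related ligands, receptors, co-receptors, proteins that process or bind the ligands, and feedback genes. The counts stand beside shares over all genes of 26.2% higher and 28.7% lower on SDS day 0, 27.0% and 31.7% on KCl day 0, 18.2% and 21.5% on DXR day 0, and 22.9% and 23.9% in RS. Over all 25 comparisons with untreated cells 14.6% of pairs of a gene and a comparison were higher and 15.3% lower. Of 19 other FGF genes 6 were abundant enough to be tested, and of 15 other VEGF, PDGF, HGF and angiopoietin genes 7 were. On SDS day 0 4 of the 6 FGF genes were lower and none higher, on KCl day 0 2 were higher and 1 lower, and on DXR day 0 none passed. FGF1, the acidic FGF, was 280 and 294 normalized reads on SDS day 0 and 921 and 1158 in untreated cells (-1.85 ± 0.22, adjusted p = 1.45e-08). FGF9 was lower on SDS day 1 (-3.13) and FGF17 higher on KCl day 8 (2.94). FGF14 was lower on SDS day 0 (-1.90), except without the deeper SDS library (-0.91, adjusted p = 0.110).

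Of the 7 other ligands 1 was higher and 3 lower on SDS day 0, 3 and 2 on KCl day 0, and 2 and 1 on DXR day 0. PGF, the placental growth factor of the VEGF family, rose from 6.58 and 12.1 normalized reads in untreated cells to 132 and 191 on DXR day 0 (4.01 ± 0.50, adjusted p = 1.16e-07). ANGPTL2 was 1041 and 1138 on SDS day 0 and 4032 and 3546 in untreated cells (-1.80 ± 0.15, adjusted p = 6.91e-12). PDGFB (SDS day 0, -2.30) and PDGFD (SDS day 1, -2.19) were lower.

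Of 10 tested receptors 6 were lower and 1 higher on SDS day 0 (28.7% and 26.2% over all genes). On KCl day 0 it was 3 each, on DXR day 0 5 lower and none higher, and in RS 5 lower and 3 higher. PDGFRA, the receptor of PDGFA and PDGFC, was 1819 and 2296 normalized reads on SDS day 0 and 11969 and 10304 in untreated cells (-2.44 ± 0.17, adjusted p = 4.91e-13). On KCl day 0, where PDGFC peaked, PDGFRA was 29604 and 28051 (1.38 ± 0.17, adjusted p = 3.93e-08). On DXR day 0 it was 6764 and 4932 (-0.94 ± 0.17, adjusted p = 3.69e-05). PDGFRL, a PDGF receptor-like protein, went the other way on SDS day 0, at 1745 and 2333 against 554 and 529 in untreated cells (1.90 ± 0.17, adjusted p = 2.95e-11). FGFR3 was lower on KCl day 8 (-2.09) and FGFR4 in RS (-1.99). FGFR1 and MET, named after their values were seen, were lower in 13 and 12 of the 25 comparisons and higher in 1 each.

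Of 10 tested co-receptors 7 were lower and 1 higher on SDS day 0, 8 and 2 on KCl day 0, 2 and 3 on DXR day 0, and 3 and 5 in RS. GPC4, a glypican that carries heparan sulfate, rose in RS from 439 and 654 to 4104 and 7099 normalized reads (3.33 ± 0.23, adjusted p = 3.12e-13). SDC1, a syndecan, was lower in 16 of 25 comparisons, in RS by -2.10 (adjusted p = 2.61e-12). NRP1, a VEGF co-receptor, was lower in 14 and GPC6 in 19 of 25 comparisons, with falls of -1.56 in RS and -1.32 on DXR day 6.

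Of 11 genes that process or bind the ligands 6 were lower and 3 higher on SDS day 0, 7 and 2 on KCl day 0, 3 and 3 on DXR day 0, and 3 and 4 in RS. CCBE1, a cofactor in the proteolytic activation of VEGFC, was lower in 19 of 25 comparisons, with 953 and 942 normalized reads on SDS day 0 and 4949 and 3403 in untreated cells (-2.11 ± 0.14, adjusted p = 3.52e-13). PCSK6, a proprotein convertase, was higher in RS (3.20), and SPINT1 and SPINT2, inhibitors of the HGF activator, were higher on DXR day 0 (3.07) and SDS day 0 (2.27). The SPINT2 call ended without the shallower untreated library (1.26, adjusted p = 0.0829).

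Of 12 feedback genes of receptor signalling 3 were higher and 4 lower on SDS day 0, 3 and 2 on KCl day 0, 2 and 3 on DXR day 0, and 2 and 2 in RS. SPRY1 was lower on SDS day 0 (-2.15) and SPRY2 on KCl day 0 (-1.48), both sprouty inhibitors of receptor signalling. DUSP4, a phosphatase of MAP kinases, was higher in RS (2.08) and in 12 of 25 comparisons. ETV4, a transcription factor induced by FGF signalling, was lower on DXR day 16 (-1.76) and in 15 of 25 comparisons. The medians of the lists on SDS day 0 were -1.68 for the other FGFs, -0.46 for the other ligands, -0.89 for receptors, -0.80 for co-receptors, -0.59 for processing genes and -0.14 for feedback genes, beside -0.02 over all genes tested.

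**Figure D5:**
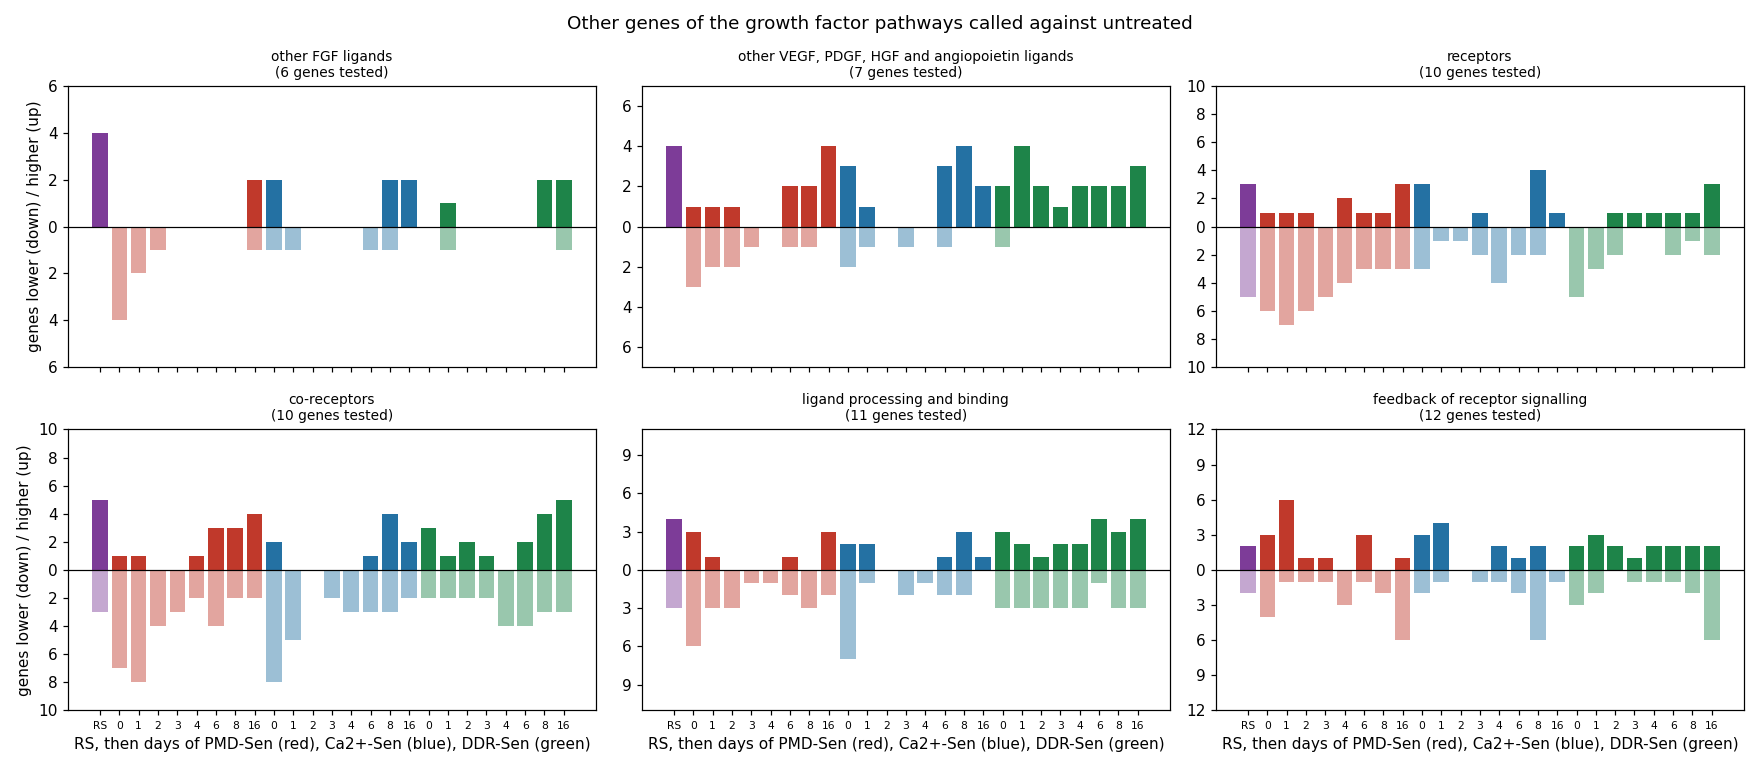
Number of genes of each list that were higher (darker bars, up) or lower (paler bars, down) than in untreated cells, by group. Of the other FGF genes 4 of 6 tested are lower and none is higher on SDS day 0, and 8 of 10 tested co-receptors are lower on SDS day 1 and on KCl day 0.

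Genes whose mean log2 level over the 26 groups most resembled that of a member were looked up among 11145 genes with a mean of at least 100 reads. Pearson's r is given as a description, since the groups share inducers, times and size factors. FGF2 was most like CCNH (0.91) and GOPC (0.90), FGF5 like SUSD5 (0.90) and PAQR4 (0.89), and FGF7 like SOX4 (0.90) and COL3A1 (0.88). VEGFA resembled SLC6A9 (0.95) and TGIF1 (0.95), and VEGFC resembled DOCK10 (0.95) and SLC35F2 (0.92). For PDGFC the closest were FIGN and FUBP1 (0.89 each), for HGF they were DENND2A (0.91) and FGFR1 (0.90), and for ANGPT1 BTBD8 (0.90) and CCDC170 (0.88). ANGPTL4 was nearest to PANX2 (0.91) and ATP6V1B2 (0.89). PDGFA had the loosest matches by Pearson's r, MAGED2 (0.78) and RUSF1 (0.77). By rank, Spearman's rho of these pairs ranged from 0.63 (FGF7 with COL3A1) to 0.95 (VEGFC with DOCK10). It was 0.69 for FGF7 with SOX4 and 0.74 for FGF2 with CCNH. Among the members themselves HGF ran opposite to FGF2 (r = -0.82) and ANGPTL4 (r = -0.76) and with ANGPT1 (r = 0.69) over the same 26 groups.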

How the data were processed

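Total RNA of 52 WI-38 libraries (26 groups) was sequenced as paired-end reads. Per the labels, the submitters' processing notes name Trim Galore, HISAT2, HTSeq, featureCounts and DESeq2 and the build GRCh38 (hg38), with no versions. The authors deposited 52 files that hold 25 distinct DESeq2 result tables of 59408 genes, each for 1 treated or senescent group against untreated cells. The only values used were the deposited mean normalized counts, a signal over the 4 libraries of a comparison. The other columns hold the authors' own fold changes and p-values, which were not used.

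Each mean is a sum of whole reads divided by size factors, so the reads of single libraries were recovered from the printed digits with Python 3.11.15 and sympy 1.14.0. The pair shared by all 25 tables was taken as the untreated group. For 15794 of 15796 genes separate solutions from 2 sets of the 10 tables printed with 15 digits gave the same untreated reads. This check covered the untreated libraries only, and the treated reads had none of this kind. Of pairs of a gene and a group 2.33% stayed unresolved (22.7% on DXR day 1), and these entered as the mean of the group with a weight of 2. The recovered libraries carry no replicate number and are ordered by depth. Replicates differed by more than counting noise, with a chi-square per gene of 203 in RS and 5.63 to 33.8 in the other groups, so no library was counted as deposited more than once. The spread shared over all groups can thus understate that of RS.

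Reads were scaled by the median of ratios (size factors 0.496 to 1.86), genes with a mean of at least 10 reads were kept (15796), and log2((reads + 0.5)/size factor) was fitted with limma 3.58.1 (R 4.3.3) in 1 fit of 26 groups with 26 residual degrees of freedom and a mean-variance trend. A member with an unresolved pair had 25. Tests were two-sided, with Benjamini-Hochberg adjustment over all genes of a comparison and a threshold of 0.05. A fold change is on this log2 scale, intervals are 95%, and depth (15260000 to 55510000 reads per library) limits the precision of genes with few reads. Since the deposited unit is not a count table, the test was run on recovered reads and no count model was used. The recovery and the fit were tested on simulated data.

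The members and gene lists were chosen with earlier results of these data known, so no count of members is independent support. From each list up to 4 genes were named, those that passed against untreated cells with the largest absolute log2 fold change, and for each member the 2 genes with the highest Pearson correlation. Comparisons between successive days and those of KCl day 8 were added after seeing the data. Positions are from GENCODE v29 and promoters from RefSeq GRCh38.p14, which had windows for 7 of the 10 members. Alternatives were scaling by library totals, minimums of 1 and 100 reads, a pseudocount of 2, voom weights, fits of only the groups compared, an added fold threshold, and leaving out each library.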

Additional observations from a re-analysis of the deposited data

Results flagged for a closer look

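PDGFC, a ligand of PDGFRA, changed in opposite directions at the end of the KCl and DXR exposures. The log2 difference between KCl day 0 and DXR day 0 was 1.51 ± 0.09 (adjusted p = 4.67e-15, limma), from a rise of 1.13 after KCl (7000 and 6914 normalized reads) and a fall of 0.37 on the log2 scale after DXR (2641 and 2273). Both libraries of KCl day 0 lay above and both libraries of DXR day 0 below the untreated pair (3384 and 2967). The fall after DXR ended without the deeper untreated library (-0.28, adjusted p = 0.0541) or without the shallower DXR library (-0.26, adjusted p = 0.0688), whereas the difference between the inducers passed without each of the 4 libraries compared. KCl exceeded DXR in PDGFC on days 1, 2, 8 and 16 as well, by 0.45 to 0.76 on the log2 scale. On days 4 and 6 (0.39 and 0.36, adjusted p = 0.0114 and 0.0204) the call ended without any of the 4 libraries of day 4 (0.35 to 0.43, adjusted p = 0.0668 to 0.156), without the deeper KCl day 6 library (0.24, adjusted p = 0.432) or without either DXR day 6 library (0.36 each, adjusted p = 0.120 and 0.115).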

How the results depend on the processing

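With 2 libraries a group, depths of 15260000 to 55510000 reads and 1 untreated pair for all 25 comparisons, small differences were the least firm, and PDGFA had the fewest reads. No paired analysis was possible because the recovered libraries carry no replicate number. Of the 93 calls of members against untreated cells, 75 passed under every other scaling, filter, pseudocount, weighting and two-group fit and 57 without each library, and none changed direction. Between inducers 61 and 39 of 77 did, against RS 4 and 6 of 11, between successive days 31 and 15 of 38, and among the named genes of the lists 35 and 36 of 38.

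A fold threshold of 1 on the log2 scale lowered the counts of members called to 14 after SDS (from 35), 7 after KCl (from 18), 10 after DXR (from 34), 2 in RS (from 6), 12 between SDS and KCl (from 32), 5 between SDS and DXR (from 19), 7 between KCl and DXR (from 26) and 5 on day 16 against RS (from 11), which follows from its construction. Fits of only the groups compared gave 28 after KCl, 3 in RS, 42 between KCl and DXR and 4 on day 16 against RS, and the cause was not tested. The shares over all genes in these fits are not given, so these counts cannot be set against all genes. Leaving out single libraries gave 26 to 36 after SDS, 14 to 19 after KCl, 25 to 35 after DXR, 4 to 7 in RS, 25 to 34 between SDS and KCl, 16 to 22 between SDS and DXR, 24 to 28 between KCl and DXR, 8 to 13 on day 16 against RS, and 26 to 30 of the 30 pairs that varied over the days. A lone library left in a group was assumed to vary like the other groups. Scaling by library totals moved the median of all genes by at most 0.08 on the log2 scale, but shifted the share of calls over all genes that were higher by over 10 percentage points in 14 of 52 comparisons, 3 of them with untreated cells.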

Other observations

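Lists of genes that other signals are known to induce were counted beside the members, since VEGFA and ANGPTL4 belong to such programmes as background. Of 9 tested targets of ATF4, the transcription factor of the integrated stress response, all 9 were higher on SDS day 0, 7 on KCl day 0 and 2 on DXR day 0, where 3 were lower. TRIB3 rose from 814 and 670 normalized reads in untreated cells to 14386 and 14018 on SDS day 0 (4.26 ± 0.18, adjusted p = 1.50e-18). DDIT3, ASNS and ATF3 rose there by 3.71, 3.52 and 3.50 on the log2 scale. Of 10 tested hypoxia targets 6 were higher and 2 lower on SDS day 0, 5 and 2 on KCl day 0, 3 and 1 on DXR day 0, and 3 and 1 in RS. PFKFB4 was higher on DXR day 0 (2.27) and NDRG1 in RS (1.35), and ADM was lower on SDS day 0 (-1.26) and PDK1 on KCl day 0 (-1.71). Of 6 tested PPAR targets 5 were higher on SDS day 0, 2 on KCl day 0, 4 on DXR day 0 and 4 in RS, and none was lower. PLIN2, which coats lipid droplets, rose from 2462 and 2979 to 21894 and 19306 on SDS day 0 (2.92 ± 0.10, adjusted p = 1.96e-20), and CPT1A was higher on KCl day 0 (0.67) and FABP4 in RS (3.05), which did not pass in a fit of only those groups (3.04, adjusted p = 0.0965). PDK4 had no read in either untreated library and 70.4 and 152 normalized reads on KCl day 0. Over all genes 26.2% were higher and 28.7% lower on SDS day 0, and 27.0% and 31.7% on KCl day 0. On DXR day 0 it was 18.2% and 21.5%, and in RS 22.9% and 23.9%. What part these signals had in the levels of the members was not tested.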
